A study of Drosophila melanogaster with 16 samples.

Results

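In Drosophila melanogaster, genes known only by a CG number, the provisional identifier given when the genome was annotated, are described here where their RNA stayed higher on a high-sugar diet at every time sampled. The 135 members were chosen by their measured values. Each had a mean normalised read count of 5 or more in at least 1 group, and its mean on the high-sugar diet lay at least 0.7 above the low-sugar mean at 4, 8 and 16 h, on the log2(value + 0.5) scale, where 0.7 is 1.62-fold. They were 135 of 3810 CG-numbered genes at that level and of 10128 genes in the table. A further 4 genes met the limits and were left out by name (CG1774, CG8036, CG1213 and CG5724). Among 5072 genes with other symbols at that level, 95 met the same limits.

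The RNA came from whole larvae labelled wild type, and each sample was a collection of feeding larvae, with no strain or number of larvae given. All larvae spent 24 h on a low-sugar diet of 10% yeast (LSD) as first instars at 25 °C. As early second instars they were moved to a high-sugar diet of 10% yeast with 15% sucrose (HSD) for 4, 8 or 16 h, or to LSD again for 8 h, and both foods held 2% blue dye. There were 3 libraries of HSD at 4 h, 3 at 8 h and 4 at 16 h, and 4 of LSD; 2 further HSD libraries that the labels mark as outliers were not analysed here. LSD was sampled at 8 h alone, so at 4 and 16 h the diet and the time since transfer cannot be told apart.

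When larvae take in sugar, the transcription factor pair Mondo and Mlx is known to sense glucose phosphates and to switch on genes of sugar breakdown, fat synthesis and other regulators. The larval midgut digests and absorbs the food, and the fat body stores the surplus as fat and glycogen. Most CG-numbered genes have no function assigned by experiment, so what can be said of the members is mainly how their RNA behaved. Of the 135, 16 now carry a name in the current annotation, and 16 more are named below by a RefSeq synonym that states a family or an enzyme. The remaining 103 are given here with no role; some of them also carry a synonym, but not one from which a role was taken.

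Each library held 16300308 to 25284073 counted reads, and a gene with 3 reads had a value of 0.117 to 0.182. All listed muscle, neuron, hemocyte, midgut and Malpighian tubule markers were measured, while 1 of 6 fat body markers (Rfabg) and 0 of 5 salivary gland and 0 of 5 testis markers were among the genes used here. The summed level of 6 midgut markers lay at 948 to 2018 in HSD at 4 h, 2420 to 2962 at 8 h, 3088 to 3963 at 16 h, and 1501 to 2192 in LSD. The sum of 93 cuticle genes lay at 8301 to 12542 in HSD at 4 h, 9992 to 18134 at 8 h, 4892 to 7458 at 16 h, and 10463 to 18713 in LSD. These sums moved between groups, and their part in the results below was not tested. In whole larvae, more cells of a type and more RNA per cell cannot be told apart. No label states that replicates are separate cultures; the p-values then reflect only how far these samples differ, and that spread may be technical.

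Values below are normalised read counts, given per library in the order of the replicate numbers (1, 3 and 4 for HSD at 4 h, 2, 3 and 4 for HSD at 8 h, and 1 to 4 for HSD at 16 h and for LSD). Averages are means ± SD over these libraries. Differences are between group means of log2(value + 0.5), which understates the change of low genes, and a fold is such a difference turned back to a ratio. Because the differences from LSD chose the members, they are given as a description with no test. Over the members the median log2 difference from LSD was 1.05 at 4 h (range 0.70 to 3.23), 1.33 at 8 h (0.72 to 4.19) and 1.30 at 16 h (0.70 to 4.31). Over all 10114 genes tested it was 0.00620 at 4 h, -0.0104 at 8 h and -0.000545 at 16 h. The difference was largest at 8 h in 84 members, at 16 h in 33 and at 4 h in 18, and it was smallest at 4 h in 81. All 10 HSD libraries lay above all 4 LSD libraries in 91 members (67.4%), against 5.89% of all genes tested; the rule used these values, so nothing is read from that share. In the whole table, limma called 12.8% of genes higher and 11.4% lower at 4 h than in LSD, 17.5% higher and 16.9% lower at 8 h, and 19.4% higher and 20.4% lower at 16 h (adjusted p under 0.05).

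**Figure D1:**
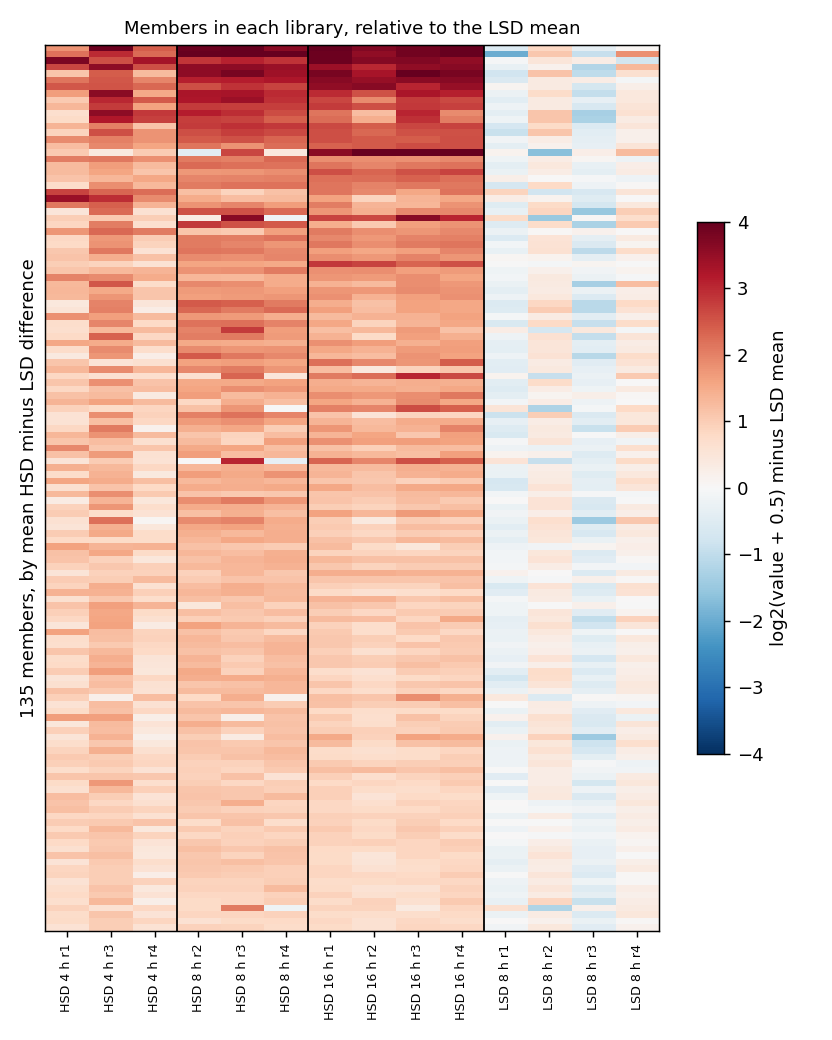
Each row is 1 of the 135 members, ordered by its mean difference from LSD, and each column 1 library, with HSD at 4, 8 and 16 h left of LSD; colour is log2(value + 0.5) minus the LSD mean of that gene, with the scale ending at 4 on either side. The HSD columns are red in nearly all rows, HSD 4 h replicate 3 is darker than the other 4 h libraries in most rows, and LSD replicates 1 and 3 are blue where replicates 2 and 4 are pale red.

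The members nearest to the limit show how it cut the list. Just inside it lay CG4576, CG7365 and CG9084, with a smallest log2 difference of 0.7002, 0.7021 and 0.7049, and just outside it lay CG6125, CG17323 and CG31792, at 0.6964, 0.6908 and 0.6892. The smallest difference was 1 or more in 56 members, and the mean of the 3 differences was 2 or more in 17. The LSD mean was under 5 in 41 members and under 1 in 4. On HSD the members' mean levels ran from 3.48 to 530.0, with a median of 29.3. All 135 members passed the filter on low values, which the level that chose them favours but does not ensure.

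CG12057 (X, 9191657 to 9192548, plus strand, in BDGP6.54, matched by gene identifier) and CG14205 (X, 19592609 to 19595548, plus strand) had the largest mean differences. The level of CG12057 was 11.4, 51 and 17.7 in HSD at 4 h, 51.3, 66.5 and 41 at 8 h, 59.99, 44.4, 49.4 and 62.1 at 16 h, and 1.84, 5.58, 2.17 and 3.09 in LSD. That of CG14205 was 89.1, 157 and 93.5 in HSD at 4 h, 354, 406 and 326 at 8 h, 297, 229, 286 and 327 at 16 h, and 4.53, 41, 9.96 and 68.9 in LSD. Every HSD library lay above every LSD library in both genes. Among the 4 h libraries replicate 3 stood highest, and in CG14205 all 4 h libraries lay below all 8 and 16 h libraries. LSD itself was spread, and in CG14205 the highest LSD library lay 15.2-fold above the lowest, with replicates 2 and 4 high. The log2 differences from LSD were 2.71, 3.94 and 3.98 for CG12057 and 2.48, 4.19 and 3.84 for CG14205, at 4, 8 and 16 h.

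CG4269 (2R, 22597245 to 22600695, plus strand), which encodes a protein of 102 residues, differed in shape. Its level was 33, 14.2 and 23.8 in HSD at 4 h, 17.3, 20.3 and 17.5 at 8 h, 36.7, 30.4, 31.1 and 28 at 16 h, and 1.88, 2.91, 2.49 and 0.969 in LSD. All HSD libraries were far above LSD, and the 3 libraries at 8 h lay below all 4 at 16 h. The folds over LSD were 9.37-fold, 7.70-fold and 13.1-fold at 4, 8 and 16 h. CG4269 shares 291 exon bases with CG4294 on the opposite strand, whose mean level was 46.2 in HSD at 4 h, 46.2 at 8 h and 40.5 at 16 h, against 47.1 in LSD. Whether the authors counted by strand is not stated, so reads of such overlaps may be shared.

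CG10182 (3R, 23587120 to 23589819, minus strand) and CG9825 (2R, 22837361 to 22839291, plus strand) shared a pattern in which HSD 4 h replicate 3 was already at the level of 8 h. CG10182 had 88.2, 163 and 81.3 in HSD at 4 h, 163, 164 and 149 at 8 h, 147, 111, 159.5 and 171 at 16 h, and 10.7, 15, 5.67 and 33.6 in LSD. CG9825 had 9.40, 37.6 and 8.35 in HSD at 4 h, 29.1, 30.2 and 23.8 at 8 h, 23.8, 17.5, 29.1 and 26.3 at 16 h, and 2.15, 4.67, 1.11 and 3.69 in LSD. In both genes HSD 4 h replicates 1 and 4 lay well below replicate 3, and all HSD libraries were above all LSD libraries. CG32750 had the same form, with 6.68, 19.5 and 8.23 in HSD at 4 h, 19.5, 19.2 and 19 at 8 h, 19.5, 16.8, 20.02 and 18.5 at 16 h, and 1.99, 3.17, 1.32 and 3.57 in LSD. CG5892, the lowest of these genes, had 1.22, 6.21 and 4.09 in HSD at 4 h, 7.29, 8.46 and 5.84 at 8 h, 4.75, 2.58, 5.23 and 4.64 at 16 h, and 0.117, 0.553, 0.159 and 0.606 in LSD; the values of LSD replicates 1 and 3 rest on 3 reads each.

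**Figure D2:**
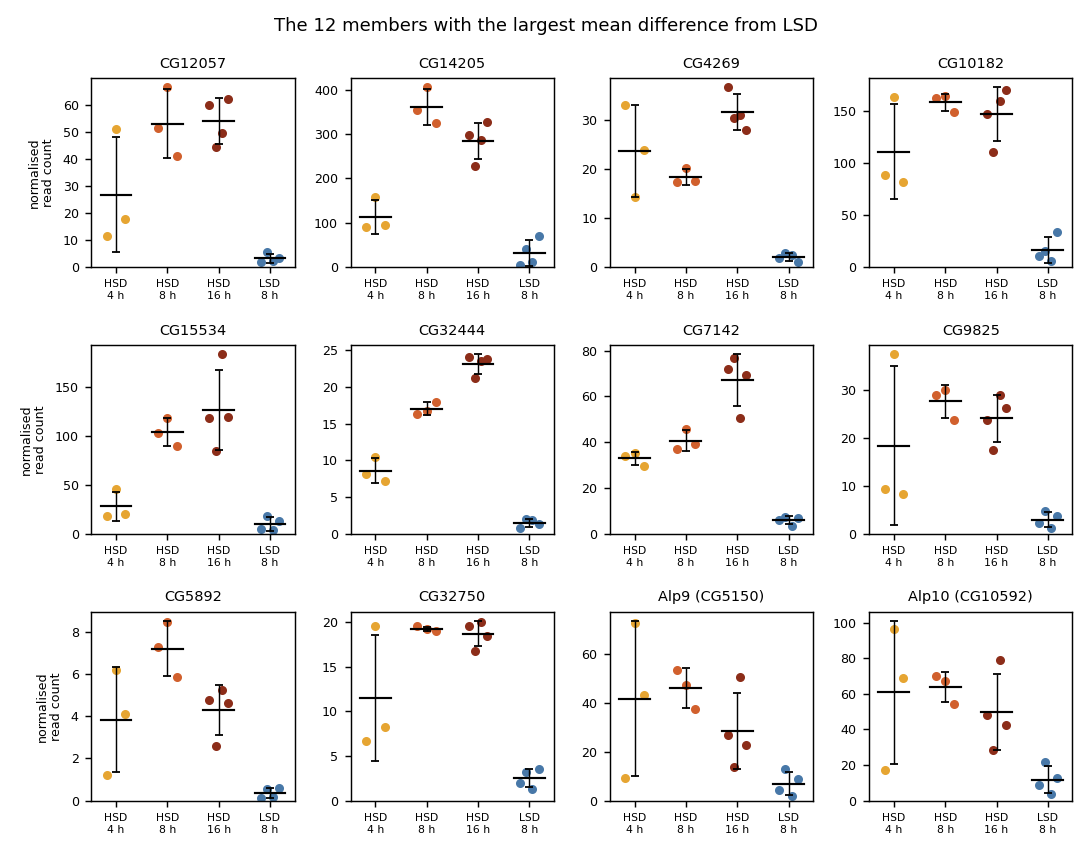
Normalised read counts of the 12 members with the largest mean difference from LSD, 1 panel per gene with its own linear axis from 0; points are libraries, the horizontal line is the group mean and the bar its SD (n = 3, 3, 4 and 4, left to right). In CG12057, CG10182, CG9825, CG32750 and both alkaline phosphatase genes the 4 h group holds 1 library far above another, while CG14205, CG15534, CG32444 and CG7142 have all 4 h libraries below all 16 h libraries.

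Of the 12 members with the largest mean differences, CG15534 and CG32444 have a synonym that points to lipid or sugar chemistry. CG15534, listed in RefSeq under a synonym for acid sphingomyelinase, an enzyme that splits sphingomyelin-type lipids, had 17.9, 45.6 and 20.4 in HSD at 4 h, 103, 119 and 90.1 at 8 h, 119, 84.6, 184 and 120.0 at 16 h, and 4.57, 18.4, 3.76 and 12.8 in LSD. The lowest HSD library, at 4 h, lay just below the highest LSD library, so the groups overlapped, and the 8 and 16 h libraries lay far above both. The folds over LSD were 3.03-fold, 12.1-fold and 14.3-fold at 4, 8 and 16 h. CG32444, listed under a synonym for aldose 1-epimerase, which interconverts the alpha and beta forms of sugars such as glucose, had 8.18, 10.5 and 7.15 in HSD at 4 h, 16.4, 16.7 and 18 at 8 h, 24.1, 21.2, 23.5 and 23.9 at 16 h, and 0.820, 2.01, 1.91 and 1.33 in LSD. Here the groups stood in order of time on HSD with no overlap, all above LSD. Pippin (CG4797), of the sugar transporter family, averaged 23.9 ± 4.70, 24.5 ± 2.52 and 21 ± 2.19 in HSD at 4, 8 and 16 h, against 7.67 ± 1.79 in LSD. Its level was much the same at the 3 times and highest in HSD 4 h replicate 1.

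Other lipid-related members differed less from LSD. Pummelig (puml, CG1882), whose RefSeq synonyms name the ABHD4 and CGI-58 family of lipid hydrolase-like proteins, averaged 89.7 ± 9.98, 83.2 ± 3.21 and 76.9 ± 2.62 in HSD at 4, 8 and 16 h, against 43.3 ± 5.10 in LSD. Rdh1 (CG2064), a retinol dehydrogenase, averaged 39.3 ± 12.7, 45.7 ± 3.38 and 43.5 ± 2.62 in HSD at 4, 8 and 16 h, against 20.5 ± 3.71 in LSD. PIG-Wb (CG18173), of the pathway that builds the GPI lipid anchor of surface proteins, averaged 11.3 ± 4.09, 20.8 ± 1.12 and 18.4 ± 1.65 in HSD at 4, 8 and 16 h, against 4.73 ± 1.90 in LSD, and was called higher at 16 h than at 4 h (log2 0.73, SE 0.26, adjusted p = 0.043). Puml shares 148 exon bases with cathD on the opposite strand.

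The enzymes of amino acid synthesis were P5CS (CG7470, 3L, 21972002 to 21984606, plus strand), which makes the precursor of proline, and Ass (CG1315), argininosuccinate synthetase, which takes part in making arginine. P5CS had 227, 300.4 and 228 in HSD at 4 h, 456, 431 and 423 at 8 h, 418, 363, 407 and 429.7 at 16 h, and 71.8, 127, 76.4 and 113 in LSD. All HSD libraries were above LSD, and the 4 h libraries lay below those of 8 and 16 h. Ass averaged 21.3 ± 11, 32.5 ± 1.47 and 27.7 ± 2.80 in HSD at 4, 8 and 16 h, against 9.24 ± 3.16 in LSD. All HSD libraries of Ass also lay above LSD; its gene shares 936 exon bases with CG31286 on the opposite strand, a gene not used here.

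The serine protease family, named in RefSeq by the codes SP (proteases, many of which digest protein in the larval gut) and SPH (homologs without a complete catalytic site), gave 9 members. Their median log2 difference from LSD was 1.06 at 4 h, 1.61 at 8 h and 1.40 at 16 h, beside 1.05, 1.33 and 1.30 over all members. CG7142 (SP132) had 33.9, 35.1 and 29.7 in HSD at 4 h, 36.8, 45.6 and 39.4 at 8 h, 71.9, 76.7, 50.7 and 69.2 at 16 h, and 6.17, 7.39, 3.34 and 6.78 in LSD. The 4 libraries at 16 h lay above all at 8 and 4 h, and LSD was lowest throughout. CG10472 (SP78), the member of this family with the highest level per kilobase (246 on HSD and 78.8 on LSD), had 83.6, 287 and 92.2 in HSD at 4 h, 351, 355 and 288 at 8 h, 203, 162, 229 and 226 at 16 h, and 48.1, 109, 20.4 and 118 in LSD. Of its 4 h libraries, 2 lay below the highest LSD libraries, and HSD 4 h replicate 3 was at the level of 8 h. CG6067 (SPH254) went the other way in time, with 23.4, 16.3 and 7.57 in HSD at 4 h, 5.62, 4.64 and 4.75 at 8 h, 6.06, 3.51, 5.10 and 5.87 at 16 h, and 2.19, 1.91, 1.06 and 1.70 in LSD. It was highest at 4 h, most of all in replicate 1, and its later HSD libraries still lay above LSD. The other members of the family were CG33127, CG11912, CG5246, CG6041, CG6048 and CG9673. Over the 9 members the log2 difference from LSD ranged from 0.76 to 2.77 at 4 h and from 0.71 to 3.43 at 16 h.

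UDP-glycosyltransferases, which attach sugars to small molecules and so help to clear them, gave 5 members. Their median log2 difference from LSD was 1.07 at 4 h, 1.28 at 8 h and 1.07 at 16 h. Ugt37A3 (CG5999, 3R, 12741958 to 12743680, minus strand) had the largest difference of the 5 at 16 h, with 4.90, 6.13 and 4.27 in HSD at 4 h, 7.0, 7.15 and 7.51 at 8 h, 12.8, 10.6, 12.6 and 14.1 at 16 h, and 1.37, 2.26, 1.22 and 2.30 in LSD. Its 16 h libraries lay above all others, and the fold over LSD was 2.48-fold, 3.46-fold and 5.81-fold at 4, 8 and 16 h. Ugt49B1 (CG4302) was the most abundant of the 5 per kilobase (88 on HSD and 42.2 on LSD) and averaged 132 ± 18.3, 179 ± 8.08 and 152 ± 9.80 in HSD at 4, 8 and 16 h, against 74.1 ± 13.5 in LSD. Ugt305A1 (CG18869) averaged 19.7 ± 3.35, 21.6 ± 1.91 and 17.1 ± 1.98 in HSD at 4, 8 and 16 h, against 9.19 ± 1.84 in LSD, and Ugt303B3 (CG10170) averaged 10.4 ± 4.0, 12.2 ± 2.03 and 11.3 ± 0.636 in HSD at 4, 8 and 16 h, against 5.47 ± 2.32 in LSD. In Ugt303B3 the HSD and LSD libraries overlapped, and in the other 4 they did not.

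Alkaline phosphatases, enzymes that remove phosphate from substrates outside the cell, gave 3 members. Alp9 (CG5150, 3L, 5595542 to 5597422, plus strand) had 9.29, 72.5 and 43.1 in HSD at 4 h, 53.4, 47.1 and 37.3 at 8 h, 26.7, 13.8, 50.2 and 22.5 at 16 h, and 4.18, 12.8, 1.96 and 8.84 in LSD. Alp10 (CG10592, 3L, 5592741 to 5595272, minus strand) had 17.4, 96.2 and 69.1 in HSD at 4 h, 69.8, 67.4 and 54.4 at 8 h, 48.3, 28.3, 79.1 and 42.8 at 16 h, and 8.71, 21.9, 3.87 and 12.7 in LSD. Within each group the libraries stood in the same order in both genes, with HSD 4 h replicate 1 below the highest LSD library. Alp6 (CG1809), on another arm (2R), averaged 73.7 ± 38.2, 105 ± 13.1 and 75.2 ± 9.77 in HSD at 4, 8 and 16 h, against 41.6 ± 18.1 in LSD. HSD and LSD libraries overlapped in all 3.

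The remaining members with a name or synonym were few. CG11892, CG11893 and CG33301 carry codes used for ecdysteroid kinase-like genes. CG11892 had 116, 168 and 145 in HSD at 4 h, 73.9, 69.98 and 106 at 8 h, 144, 125, 117 and 131 at 16 h, and 28.8, 34.6, 38.1 and 34.2 in LSD, with the 8 h libraries below those of 4 and 16 h and all above LSD. OtopLb (CG3332), of the otopetrin family of proton channels, averaged 27.4 ± 6.30, 37.7 ± 3.85 and 34.8 ± 1.43 in HSD at 4, 8 and 16 h, against 15.3 ± 4.65 in LSD. Jhbp7 (CG11852), of the juvenile hormone binding protein family, had 10.7, 11.2 and 10.8 in HSD at 4 h, 6.66, 69.2 and 4.54 at 8 h, 36.3, 34.6, 69.9 and 46.6 at 16 h, and 9.10, 1.51, 5.30 and 8.60 in LSD. At 8 h it was high in replicate 3 alone, and the other 8 h libraries lay within the LSD range. CG11149, under a synonym for a beta-1,3-N-acetylglucosaminyltransferase, averaged 6.45 ± 2.13, 8.11 ± 0.673 and 6.27 ± 0.784 in HSD at 4, 8 and 16 h, against 3.22 ± 1.70 in LSD.

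The members with the highest read counts were CG6770, CG13315, CG3348, P5CS, CG31343 and CG14205. CG6770 (2L, 12045343 to 12046118, minus strand), listed as p8, the name of a small stress-induced nuclear protein known from mammals, had 785, 442 and 449.7 in HSD at 4 h, 595, 619.7 and 476 at 8 h, 470.2, 407, 499.6 and 493 at 16 h, and 182, 177, 176 and 335 in LSD. All HSD libraries were above LSD, with HSD 4 h replicate 1 and LSD replicate 4 apart from their groups. CG13315 (3L, 9096877 to 9097494, plus strand) had 439, 462 and 378 in HSD at 4 h, 449, 434 and 522 at 8 h, 386, 388, 381 and 402 at 16 h, and 94.5, 129.6, 112 and 92.3 in LSD, a plateau that 4 h had already reached. CG3348 (3R, 27291535 to 27292209, minus strand) had 227, 258 and 298 in HSD at 4 h, 401, 410.1 and 415 at 8 h, 475, 480.4, 525 and 472 at 16 h, and 121, 103, 98.2 and 89.4 in LSD, and its 3 HSD groups stood in order of time with no overlap. The proteins of these 3 genes are short, at 69, 69 and 98 residues. Their levels per kilobase of exon were 683, 692 and 688 on HSD, above that of P5CS (77.7), CG31343 (119.6) and CG14205 (108). CG3348 shares 58 exon bases with Hmu on the opposite strand, whose mean level was 330.0 in HSD at 4 h, 262 at 8 h and 250.1 at 16 h, against 328 in LSD. CG31343 had 244, 381 and 308 in HSD at 4 h, 466, 483 and 464 at 8 h, 309, 273, 291 and 312 at 16 h, and 102, 278, 139.7 and 217 in LSD; LSD replicate 2 lay above the lowest HSD library.

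As a set, the members resembled other CG-numbered genes in size. The median protein had 424 residues (69 to 1342), against 409 in the other CG-numbered genes at that level, and the median exon length was 1758 bp, against 1811 bp. By chromosome arm, 30 members lay on 2L, 28 on 2R, 22 on 3L, 33 on 3R and 22 on X. Exon bases were shared with another gene in 48 members, on the opposite strand in 42 and on the same strand in 8, and with a measured gene in 32. The partners with the highest levels were CG44245 (with Ugt49B1, 90 bp), Hmu (with CG3348), cathD (with puml) and CG44250 (with CG44251, 121 bp on the same strand). CG44250 had a mean of 144 in HSD at 4 h, 135 at 8 h and 85.6 at 16 h, against 80.7 in LSD, so reads of CG44251 may be shared with a gene that also differed. Some partners of lower level shared more bases. CG8112 shares 2229 exon bases with Cks85A on the opposite strand, whose mean was 10.9, 8.62 and 9.42 in HSD at 4, 8 and 16 h, against 10.3 in LSD. Alp6 shares 1686 with CR45281, also on the opposite strand.

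Of the members, 19 lay next to another member in the annotation, in 10 adjacent pairs, 7 of them on the same strand, with gaps of 47 to 1582 bp. Alp10 and Alp9 lie 269 bp apart on opposite strands of 3L. CG18585 and CG7025 lie 47 bp apart on the minus strand of 2L and encode proteins of 422 and 429 residues. CG18585 had 37.6, 120.3 and 70.8 in HSD at 4 h, 122, 139.5 and 126 at 8 h, 121, 99.3, 119 and 118 at 16 h, and 10.4, 43.7, 14.7 and 23.2 in LSD. CG7025 had 20.1, 43.8 and 29.7 in HSD at 4 h, 51.7, 55.2 and 54.9 at 8 h, 54, 48.3, 52.3 and 53 at 16 h, and 7.19, 21.1, 10.3 and 12.2 in LSD. In both genes HSD 4 h replicate 1 was the lowest HSD library and LSD replicate 2 the highest LSD library, above it. On 2R, CG30047, CG30049 and CG30043 follow each other on the plus strand and encode proteins of 879, 878 and 878 residues. CG30047 averaged 46.2 ± 6.69, 72.3 ± 6.86 and 61.8 ± 2.39 in HSD at 4, 8 and 16 h, against 22.3 ± 6.22 in LSD. CG30049 averaged 5.17 ± 2.99, 9.58 ± 0.803 and 5.52 ± 1.18 in HSD at 4, 8 and 16 h, against 2.18 ± 1.51 in LSD. CG30043 averaged 40.2 ± 5.05, 37.8 ± 1.49 and 30.5 ± 1.58 in HSD at 4, 8 and 16 h, against 15.7 ± 6.91 in LSD, and of these 3 it alone had its highest mean at 4 h. Genes of near-equal length side by side can be copies of each other, and the counting of reads that fit more than 1 of them is not given.

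Ugt49B1 and Ugt49C1 (CG15661) lie 462 bp apart on the minus strand of 2R. Ugt49C1 averaged 22.3 ± 3.17, 28.7 ± 0.810 and 30.9 ± 1.65 in HSD at 4, 8 and 16 h, against 8.75 ± 2.26 in LSD, and it was called higher at 16 h than at 4 h (log2 0.47, SE 0.16, adjusted p = 0.0328); Ugt49B1 did not pass that test (log2 0.21, SE 0.13, adjusted p = 0.237), and the difference between the 2 genes was not tested. On X, CG32750 and CG32751 lie 140 bp apart on the minus strand, with proteins of 523 and 525 residues. CG32751 had 1.89, 3.35 and 2.52 in HSD at 4 h, 3.96, 3.0 and 4.33 at 8 h, 4.75, 5.11, 5.64 and 5.57 at 16 h, and 0.273, 0.653, 0.318 and 0.969 in LSD. It stood highest at 16 h and was called higher there than at 4 h (log2 0.93, SE 0.22, adjusted p = 0.00659). CG6048 and CG6067 lie 1582 bp apart on X; CG6048 (SP108) averaged 14.6 ± 6.56, 12.5 ± 0.845 and 12.1 ± 1.04 in HSD at 4, 8 and 16 h, against 6.65 ± 2.27 in LSD. The other pairs were CG6296 and CG6295, CG11378 and CG11384, and CG9981 and CG4301.

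Genes beside the members that were not members themselves mostly differed less from LSD. Of 181 flanking genes that were measured and were not members, 5 met the same limits. The median log2 difference of the 181 from LSD was 0.05 at 4 h, 0.08 at 8 h and 0.07 at 16 h. Members lying beside a member were not counted among the 181. A CG-numbered gene could therefore meet the limits there only if left out by name, so the low count follows in part from the choice of members. Muc, beside CG5958, encodes a subunit of pyruvate dehydrogenase, the enzyme complex that feeds pyruvate into the citric acid cycle. It averaged 484 in HSD at 4 h, 589 at 8 h and 589 at 16 h, against 244 in LSD. CG5724, beside Ugt37A3, averaged 18.99 in HSD at 4 h, 34.5 at 8 h and 75.3 at 16 h, against 3.64 in LSD. Both Ugt37A3 and CG5724 were thus highest at 16 h. The others were spheroide beside CG9673, Oseg4 beside PIG-Wb and CG1213 beside CG1208.

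**Figure D3:**
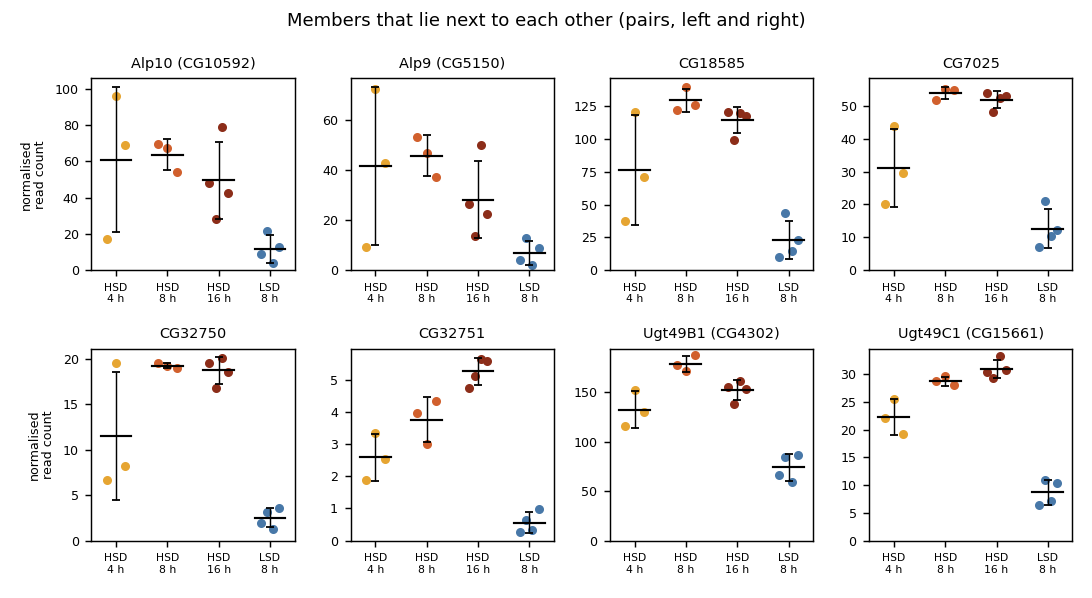
Normalised read counts of 4 adjacent pairs of members, each pair side by side (Alp10 and Alp9, CG18585 and CG7025, CG32750 and CG32751, Ugt49B1 and Ugt49C1); points are libraries, the horizontal line is the group mean and the bar its SD, on linear axes from 0. The libraries of a group stand in the same order in Alp10 and Alp9, with HSD 4 h replicate 3 highest and LSD replicate 3 lowest, while CG32751 is highest at 16 h and CG32750 is level from 8 h on.

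Whether the members went on changing between the times on HSD was tested with limma over all 10114 genes. These comparisons use the same HSD libraries as the rule, which kept each member at least 0.7 above LSD at every time, so falls were limited by the choice of members. At 16 h against 4 h, 27 members rose (20%; 16.6% of all genes tested) and 2 fell (1.48%; 19.2% of all genes), with a median log2 difference of 0.17 over the members (-1.42 to 3.50) and -0.000159 over all genes. At 8 h against 4 h, 12 rose (8.89%; 4.71% of all genes) and 3 fell (2.22%; 4.50% of all genes). Their median was 0.30, with 113 of 135 above 0, against -0.00424 over all genes. At 16 h against 8 h, 6 rose (4.44%; 14.1% of all genes) and 5 fell (3.70%; 15.4% of all genes). Their median was -0.12, with 92 of 135 below 0, against 0.00425 over all genes. In all, 98 members were called in none of the 3 comparisons. The shares of the other CG-numbered genes called were 16.4% higher and 21.4% lower at 16 h against 4 h. They were 5.34% and 4.92% at 8 h against 4 h, and 13.8% and 16.6% at 16 h against 8 h. A share of rises at 16 h near that of all genes is no result about the members.

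These counts depended on single libraries. The 12 rises at 8 h against 4 h became 3 without HSD 4 h replicate 1 and without replicate 4, and 26 without HSD 4 h replicate 3. They became 4, 5 and 6 without HSD 8 h replicate 2, 3 and 4, and 20 without LSD replicate 3, and the 3 falls became 1 or 0 without any 1 of the 6 libraries compared. The 5 falls at 16 h against 8 h became 1 or 2 without any 1 of the 7 libraries compared, and 8, 10 and 8 without LSD replicate 1, 2 and 3. The 6 rises there became 10 without HSD 8 h replicate 3 and 12 without LSD replicate 2, and the 2 falls at 16 h against 4 h became 1 without HSD 4 h replicate 1 and 4 without LSD replicate 4. The authors' deposited table calls 14 members higher and 3 lower at 8 h against 4 h, of which 15 had the same call here. For 16 h against 8 h the authors' deposited table calls 11 higher and 8 lower, of which 11 had the same call here.

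Late risers were led by CG15597 (3R, 6284462 to 6285200, minus strand), with 5.45, 3.23 and 5.29 in HSD at 4 h, 1.66, 17.7 and 3.34 at 8 h, 34.4, 47, 128 and 49.4 at 16 h, and 2.66, 0.402, 2.97 and 6.36 in LSD. It rose at 16 h against 4 h (log2 3.50, SE 0.75, adjusted p = 0.00311) and against 8 h (log2 3.42, SE 0.75, adjusted p = 0.0053), and 16 h replicate 3 stood far above the other 16 h libraries. Of its 8 h libraries, replicate 3 alone lay above the LSD range, and all its 4 h libraries lay within that range. CG15553 (3R, 31098868 to 31101169, minus strand) was less abundant and much less variable, with 1.67, 1.53 and 1.14 in HSD at 4 h, 2.81, 2.78 and 2.66 at 8 h, 7.41, 6.63, 5.01 and 5.91 at 16 h, and 0.586, 0.553, 0.689 and 0.606 in LSD. Its groups did not overlap, and it rose at each step: at 8 h against 4 h (log2 0.75, SE 0.14, adjusted p = 0.00982) and at 16 h against 8 h (log2 1.04, SE 0.13, adjusted p = 0.000299). CG4576 had 1.89, 1.53 and 1.62 in HSD at 4 h, 1.61, 6.17 and 1.36 at 8 h, 5.12, 5.79, 10.6 and 7.87 at 16 h, and 0.977, 0.201, 0.636 and 2.24 in LSD, and it rose at 16 h against 4 h (log2 1.80, SE 0.48, adjusted p = 0.0108). All 4 h libraries of CG4576 also lay within the LSD range. CG17738 had 13.6, 12.1 and 13 in HSD at 4 h, 16.2, 24.8 and 6.78 at 8 h, 29.4, 28.4, 45 and 38.5 at 16 h, and 10.04, 2.66, 6.46 and 12.4 in LSD; it rose at 16 h against 4 h (log2 1.40, SE 0.46, adjusted p = 0.0306), a call lost without any of the 3 libraries at 4 h and without 16 h replicate 3 or 4. Ugt37A3 rose at 16 h against 8 h (log2 0.75, SE 0.18, adjusted p = 0.00807) and against 4 h (log2 1.23, SE 0.18, adjusted p = 0.000247). CG7142 rose at 16 h against 8 h (log2 0.71, SE 0.21, adjusted p = 0.0266), a call lost without HSD 8 h replicate 2 or 4 or 16 h replicate 1, 2 or 4.

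Other members rose between 4 and 8 h. CG15534 rose at 8 h against 4 h (log2 1.99, SE 0.52, adjusted p = 0.0346) and did not pass the test at 16 h against 8 h (log2 0.24, SE 0.49, adjusted p = 0.744). CG32444 rose at 8 h against 4 h (log2 0.96, SE 0.20, adjusted p = 0.015) and at 16 h against 4 h (log2 1.39, SE 0.19, adjusted p = 0.000177). CG9555 had 25, 39.8 and 21.3 in HSD at 4 h, 68.2, 74.9 and 70.2 at 8 h, 61.7, 52.5, 63.3 and 63.9 at 16 h, and 5.74, 16.3, 6.30 and 13.4 in LSD, and rose at 8 h against 4 h (log2 1.34, SE 0.33, adjusted p = 0.0282). All HSD libraries of CG9555 were above LSD, and those of 8 and 16 h were above all of 4 h. P5CS rose at 8 h against 4 h (log2 0.80, SE 0.19, adjusted p = 0.0229), as did CG3348 (log2 0.65, SE 0.11, adjusted p = 0.00589). CG33127 (SPH235) had 45.8, 71.1 and 54.8 in HSD at 4 h, 99.9, 111 and 91.9 at 8 h, 78.9, 73, 86.3 and 86.8 at 16 h, and 24.2, 37.4, 22.7 and 42 in LSD, with its highest values at 8 h (log2 0.83, SE 0.22, adjusted p = 0.0348 against 4 h). Over all members called, 12 of the 15 calls at 8 h against 4 h were lost when at least 1 library was left out; so were 6 of the 11 at 16 h against 8 h and 11 of the 29 at 16 h against 4 h. Among the genes named here, the rises of CG15553 and CG3348 at 8 h against 4 h kept their call whichever library was left out, and that of P5CS lost it without HSD 4 h replicate 1 or 4 or any of the 3 libraries at 8 h. At 16 h against 4 h, PIG-Wb lost its call without any 1 of 9 libraries and Ugt49C1 without any 1 of 5, while CG32751, Ugt37A3 and CG32444 kept theirs whichever library was left out.

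In the fit of all groups, few members were called lower with time on HSD. CG6067 fell at 8 h against 4 h (log2 -1.43, SE 0.33, adjusted p = 0.0212) and at 16 h against 4 h (log2 -1.42, SE 0.31, adjusted p = 0.00358). CG31778 had 11.8, 9.86 and 9.97 in HSD at 4 h, 8.61, 8.08 and 7.57 at 8 h, 9.13, 6.34, 4.96 and 7.43 at 16 h, and 2.97, 3.11, 3.87 and 4.30 in LSD, and fell at 16 h against 4 h (log2 -0.59, SE 0.17, adjusted p = 0.0165). Its groups at 4 and 16 h did not overlap and both lay above LSD; the call was lost without HSD 4 h replicate 1. CG13946 had 27, 20.7 and 19.6 in HSD at 4 h, 9.35, 7.37 and 9.13 at 8 h, 18.4, 15.8, 12.1 and 18.7 at 16 h, and 7.42, 2.01, 2.22 and 5.57 in LSD. It fell at 8 h against 4 h (log2 -1.32, SE 0.37, adjusted p = 0.0435), and at 8 h replicate 3 lay just below LSD replicate 1. CG11892 also fell at 8 h against 4 h (log2 -0.78, SE 0.17, adjusted p = 0.0152) and then rose at 16 h against 8 h (log2 0.65, SE 0.16, adjusted p = 0.00871). At 8 h against 4 h, CG13946 lost its call without any 1 of 9 libraries, CG6067 without any 1 of 5 and CG11892 without any 1 of 3. The fall of CG6067 at 16 h against 4 h and the rise of CG11892 kept their calls whichever library was left out.

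Others had their highest values at 8 h. CG31454 had 4.45, 9.65 and 4.99 in HSD at 4 h, 13.9, 16.3 and 12.6 at 8 h, 8.20, 7.56, 8.83 and 7.72 at 16 h, and 3.56, 5.38, 2.17 and 3.45 in LSD; it rose at 8 h against 4 h (log2 1.18, SE 0.28, adjusted p = 0.0228) and fell at 16 h against 8 h (log2 -0.78, SE 0.26, adjusted p = 0.0385). CG8112, listed as ACAT, an abbreviation in use for more than 1 enzyme, had 9.85, 14.9 and 9.97 in HSD at 4 h, 15.3, 16.8 and 13.7 at 8 h, 9.18, 5.03, 7.33 and 8.41 at 16 h, and 2.54, 4.97, 2.81 and 4.85 in LSD, and fell at 16 h against 8 h (log2 -1.01, SE 0.25, adjusted p = 0.00942). All 8 h libraries of CG8112 lay above all of 16 h, and all HSD libraries above LSD, 16 h replicate 2 by a narrow margin. CG7631 had 15.3, 38.3 and 19.8 in HSD at 4 h, 42.7, 47.6 and 40.4 at 8 h, 23.2, 15, 19.1 and 19 at 16 h, and 5.35, 20.5, 6.62 and 14.2 in LSD, and fell at 16 h against 8 h (log2 -1.18, SE 0.40, adjusted p = 0.042); at 16 h 3 of the 4 libraries lay within the LSD range. CG10062 (log2 -0.52, SE 0.18, adjusted p = 0.0404) and CG34136 (log2 -0.33, SE 0.10, adjusted p = 0.0224) fell by less, CG10062 to 39.2 to 41.9 at 16 h, against 57.7 to 61.1 at 8 h. The falls of CG7631, CG31454, CG10062 and CG34136 lost their calls without any 1 of 8, 7, 7 and 4 libraries. The rise of CG31454 lost its call without any 1 of 4, while the fall of CG8112 kept its call whichever library was left out.

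**Figure D4:**
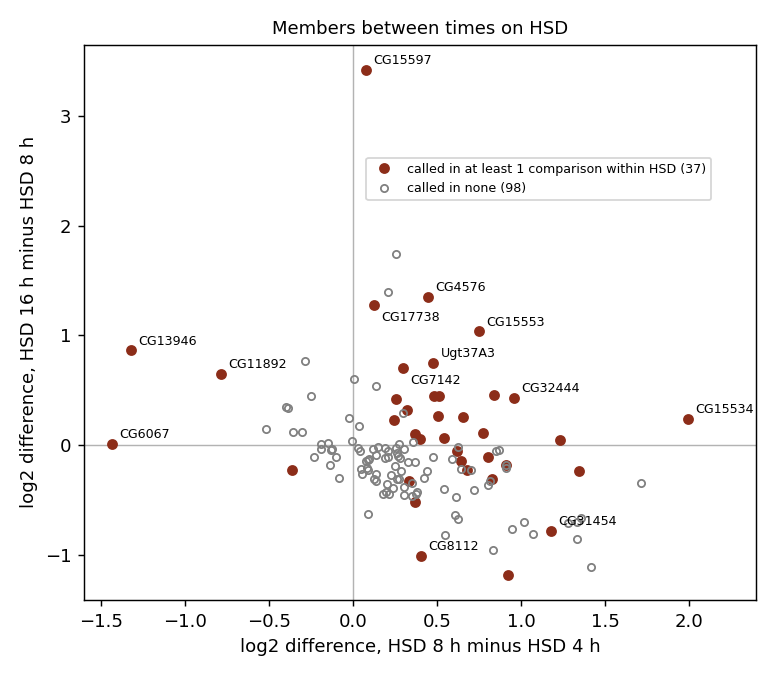
Each point is 1 of the 135 members, with the log2 difference of HSD 8 h minus HSD 4 h on the x axis and of HSD 16 h minus HSD 8 h on the y axis; filled points were called by limma in at least 1 of the 3 comparisons within HSD (37) and open points in none (98). Most points lie right of 0 and just below 0, with CG15597 far above the rest and CG6067, CG13946 and CG11892 on the left.

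The members varied together between libraries of 1 group. The group means that chose them come from these same libraries, so the shares below, set beside those of all genes, are a description of a pattern noticed in the values. In LSD, replicates 2 and 4 both lay above replicates 1 and 3 in 102 of the 135 members (75.6%), against 25.2% of all genes tested and 22.3% of the other CG-numbered genes. The reverse order held in 1 member, against 18.3% of all genes. The median log2 deviation of the members from the LSD mean was -0.23, 0.36, -0.39 and 0.31 in replicates 1 to 4, where all genes had medians of -0.02 to 0.02. The log2 range over the 4 LSD libraries had a median of 0.96 in the members and 0.35 in all genes. CG6296 had 8.57, 20.1 and 5.65 in HSD at 4 h, 13.5, 12.9 and 9.71 at 8 h, 9.18, 8.41, 12.9 and 11.6 at 16 h, and 2.58, 4.22, 0.953 and 8.06 in LSD. CG2772 had 6.23, 19.9 and 4.15 in HSD at 4 h, 16, 17 and 11.9 at 8 h, 8.34, 5.28, 8.46 and 7.97 at 16 h, and 3.16, 6.58, 1.11 and 8.78 in LSD. Both genes were lowest in LSD replicate 3 and highest in LSD replicate 4, where their level was close to that of several HSD libraries.

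On HSD the same was seen at 4 h. Replicate 3 was the highest of the 3 libraries in 102 members (75.6%), against 32.7% of all genes, and replicate 4 was the lowest in 78 (57.8%), against 32.1%. The median deviation of the members was -0.10, 0.30 and -0.23 in replicates 1, 3 and 4. At 16 h replicate 2 was the lowest of 4 in 90 members (66.7%), against 23.3% of all genes, with a median deviation of -0.13. The 8 h libraries lay closer, with medians of 0.00, 0.02 and -0.02. The 95 genes with other symbols that met the same limits showed the same order, with LSD replicates 2 and 4 above the others in 73.7%, HSD 4 h replicate 3 highest in 76.8% and HSD 16 h replicate 2 lowest in 64.2%. Of 27 CG-numbered genes that lay at least 0.7 below LSD at all 3 times, these shares were 22.2%, 18.5% and 18.5%.

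**Figure D5:**
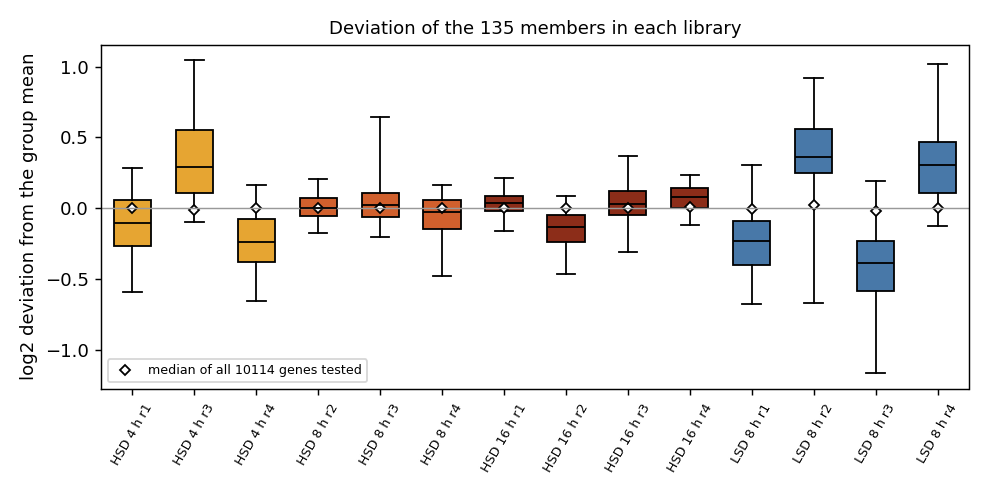
Boxes show the log2 deviation of the 135 members from their group mean in each library (median, quartiles, whiskers from the 5th to the 95th percentile), with HSD at 4, 8 and 16 h left of LSD, and diamonds the median of all 10114 genes tested. The members' medians are 0.36 and 0.31 in LSD replicates 2 and 4, -0.23 and -0.39 in LSD replicates 1 and 3, and 0.30 in HSD 4 h replicate 3, while the diamonds lie at -0.02 to 0.02.

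Other measures of the same libraries stand beside this. In LSD replicates 1 to 4 the midgut marker sum was 1693, 2192, 1501 and 1752, and the cuticle sum was 10793, 18713, 14466 and 10463. In HSD at 4 h, replicates 1, 3 and 4, the midgut sum was 1397, 2018 and 948 and the cuticle sum 12542, 8301 and 9222. In HSD at 16 h, replicates 1 to 4, the midgut sum was 3534, 3729, 3088 and 3963. In LSD and in HSD at 4 h the order of the midgut sum was that of the members' medians. In HSD at 16 h the midgut sum was not lowest in replicate 2. In HSD at 8 h, replicates 2, 3 and 4, the midgut sum was 2844, 2420 and 2962. That was the reverse of the order of the members' medians, which lay close together there (0.00, 0.02 and -0.02). The 1 fat body marker used here, Rfabg, which encodes the lipid carrier of the blood, was at 3280, 4007 and 3324 in HSD at 4 h and at 2994, 2887, 3400 and 2991 at 16 h, against 3456, 6029, 3105 and 3508 in LSD. It was highest in HSD 4 h replicate 3, lowest in HSD 16 h replicate 2, and in LSD its order was also that of the members' medians. At 4 h Rfabg was lowest in replicate 1, while the members' median was lowest in replicate 4. In HSD at 8 h, replicates 2, 3 and 4, Rfabg was at 3184, 2867 and 3510, also the reverse of the members' order. The hemocyte sum was 3066, 3671 and 2857 in HSD at 4 h and 3379, 3182, 3284 and 3079 at 16 h, against 3070, 4927, 2362 and 3002 in LSD. It too was highest in HSD 4 h replicate 3 and in LSD replicate 2 and lowest in LSD replicate 3, but at 16 h its lowest library was replicate 4. At 8 h the hemocyte sum was 3548, 3059 and 3845, in the same order as Rfabg. Muscle, neuron and Malpighian tubule sums followed another order in LSD and were highest in replicates 3, 1 and 1. The part of these measures in the pattern was not tested. How far the rule depends on these libraries can be given directly: 91 genes met it without LSD replicate 3, 120 without replicate 1, 160 without replicate 2, 163 without replicate 4 and 104 without HSD 4 h replicate 3. Of the 135 members, 74 were kept whichever library was left out.

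A smaller number of members followed another library. In 6 members (4.44%, against 1.04% of all genes tested) HSD 8 h replicate 3 lay at least 0.7 above both other 8 h libraries on the log2 scale. These were Jhbp7, CG7365, CG15597, CG4576, CG13227 and CG13312, and LSD replicate 2 was the lowest LSD library in all 6. The rule used the 8 h and LSD means, so nothing is read from that share or from the order in LSD. Without HSD 8 h replicate 3, 126 genes met the rule, all of them members. CG7365 had 1.502, 2.36 and 1.62 in HSD at 4 h, 0.918, 11.3 and 0.626 at 8 h, 6.57, 5.03, 7.87 and 6.84 at 16 h, and 1.56, 0.251, 0.583 and 1.88 in LSD. CG13227 had 7.40, 5.92 and 6.85 in HSD at 4 h, 6.541, 17 and 3.18 at 8 h, 7.22, 7.31, 4.87 and 6.99 at 16 h, and 6.02, 1.31, 4.29 and 4.85 in LSD. CG13312 had 1.67, 2.82 and 2.76 in HSD at 4 h, 4.82, 8.95 and 3.81 at 8 h, 2.61, 2.83, 3.91 and 2.54 at 16 h, and 1.17, 0.352, 1.32 and 0.787 in LSD. For Jhbp7, CG7365, CG15597 and CG4576 the mean at 8 h was thus carried by 1 library, and without it the 8 h group lay within the LSD range. In CG13227 the lower of the other two lay in that range, and in CG13312 neither did.

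As a measure of the known response, 19 genes of a sugar list were set beside the members: regulators such as Mondo and sugarbabe, and enzymes of fatty acid synthesis, the pentose phosphate pathway and glycolysis. The list was written with earlier results of these data known. It was written with 20 genes, of which tobi was not among the genes used here. Of those measured, cwo and mdy were not called against LSD at 4 h, and cwo was not called at 16 h. Of the 19, limma called 17 higher than LSD at 4 h (89.5%, against 12.8% of all genes tested). It called 19 at 8 h (100%, against 17.5%) and 18 at 16 h (94.7%, against 19.4%). Their median log2 difference from LSD was 1.29 at 4 h, 1.44 at 8 h and 1.15 at 16 h. Between times on HSD, 7 rose (36.8%, against 16.6% of all genes) and 1 fell (5.26%, against 19.2%) at 16 h against 4 h. At 8 h against 4 h, 4 rose (21.1%, against 4.71%) and 1 fell (5.26%, against 4.50%). At 16 h against 8 h, 1 rose (5.26%, against 14.1%) and 1 fell (5.26%, against 15.4%). In LSD, replicates 2 and 4 lay above replicates 1 and 3 in 57.9% of the list, against 25.2% of all genes. The log2 range over the LSD libraries had a median of 0.40, against 0.35 in all genes.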

How the data were processed

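Per the labels' protocols, RNA of whole larvae was depleted of ribosomal RNA, made into stranded libraries and read as 75 bp single ends. Trimmomatic, TopHat2 2.1.0, HTSeq and limma are named in the submitters' processing notes. No build, annotation or strand setting was given in the sources used here. The deposited signal values are reads per gene over a library size, and 100% came out as whole reads within 0.01 read. The same deposited table gives the authors' log2 fold changes and adjusted p-values, used only for counts of members. Groups come from the sample titles.

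The members, gene lists and tests were chosen with earlier results of these data known. Values were tested as log2(value + 0.5) with limma 3.58.1 in R 4.3.3, over the 10114 genes that reached 1 in 3 or more libraries, all 4 groups in 1 fit with a variance trend, Benjamini-Hochberg adjusted over all genes, two-sided, threshold 0.05. EdgeR 4.0.16 was run as an alternative on the recovered reads. The fit was tested on simulated data. Positions, neighbours and lengths are from the Ensembl annotation of BDGP6.54, and 135 of 135 members matched; names come from it and from RefSeq synonyms.

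The text names the 12 largest mean differences from LSD, per comparison within HSD up to 5 rises and 5 falls among called members whose groups do not overlap, the 6 highest levels, 3 genes on each side of the limit, adjacent members and up to 4 overlap partners. Others were chosen for a role or after their values were seen. Protein and promoter sequences were not used here. Alternatives covered the pseudocount, the filter, the scaling, the groups fitted, library weights, a replicate block and leaving out libraries. Ranges and floors cover counting error only.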

Additional observations from a re-analysis of the deposited data

Results flagged for a closer look

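In the groups of 4 libraries (HSD at 16 h and LSD), 66 members named in the text were checked for 1 library whose gap to its nearest neighbour takes up most of the group's range. Chance flags about 1 in 20 groups, and 6 of the 132 groups checked held such a value.

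CG6770, listed as p8, lay at 335 in LSD replicate 4, against 182, 177 and 176 in the other LSD libraries, and that value was still below every HSD library. CG15597 lay at 128 in HSD 16 h replicate 3, against 34.4, 47.0 and 49.4 in the other 16 h libraries. CG3348 lay at 525 in HSD 16 h replicate 3, against 472 to 480.4 in the others. CG18585 lay at 99.3 in HSD 16 h replicate 2, the library in which most members were lowest at that time. OtopLb (CG3332) lay at 37.0 in HSD 16 h replicate 1 and CG34136 at 29.5 in LSD replicate 2, gaps that are narrow in absolute terms. None of these values was left out of a mean.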

How the results depend on the processing

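Both the list of members and the counts of members called between times on HSD depend on the processing and on single libraries. Another scaling or pseudocount changed the 135 genes that meet the rule to between 122 and 139, while a limit of 1 on the log2 difference left 56. Without HSD 16 h replicate 2 and LSD replicates 2 and 3 there were 125 genes, of which 113 were members. These 3 had the highest cuticle sums within their own groups, not of all libraries: HSD 16 h replicate 2 was at 7458, and HSD 8 h replicate 4, at 18134, was kept. Leaving out 1 library gave 91 to 163.

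At 16 h against 4 h, the 2 members called lower became 4 when only the groups compared were fitted, 4 with library weights, 1 without these 3 libraries, and 1 to 4 with 1 library left out; the 27 called higher stayed between 18 and 35. At 8 h against 4 h, the 12 called higher became 32 with library weights, 19 without these 3 libraries, 3 with a replicate block, and 3 to 26 with 1 library left out. The 3 called lower became 1 with only the groups compared, 0 with the replicate block, and 0 to 3 with 1 library left out. At 16 h against 8 h, the 6 called higher became 12 with quantile normalization, 16 with only the groups compared, 14 with library weights, 10 without these 3 libraries, and 4 to 12 with 1 library left out. The 5 called lower became 3, 42 and 15 under the first 3 of these, 2 with the replicate block, and 1 to 10 with 1 library left out. The cause of these shifts was not tested.

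The deviations of same-numbered libraries correlated at -0.46 to 0.35 across genes. Libraries with different numbers were not set beside them, so whether replicate numbers pair the libraries was not tested. The replicate block lowered the whole table's calls at 8 h against 4 h to 159, against 931 without it, with fewer residual degrees of freedom. Of the 25 differences within HSD that the naming rule chose by size among groups that do not overlap, 0 reversed under any alternative, and 15 lost their call under at least 1. EdgeR on the recovered reads, added after the values were seen, called 24 members higher and 2 lower at 16 h against 4 h, 12 and 3 at 8 h against 4 h, and 6 and 6 at 16 h against 8 h. The sugar list counts stayed within 1.5 times under every alternative run.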
